A study of Mus musculus with 6 samples.

Results

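The genes described here are 9 regulators of the step at which RNA polymerase II leaves its paused state and enters productive elongation: Hexim1 and Larp7 of the 7SK ribonucleoprotein, Cdk9, Ccnt1 and Ccnt2 of the kinase P-TEFb, the BET proteins Brd2 and Brd3, and Supt5 and Supt4a of the elongation factor DSIF. They were chosen by symbol, and each gene was followed through the RefSeq transcript with the highest mean count, so 9 of 23896 named genes are described, and all 9 passed the filter on low counts that left 12381 genes. The mRNA was sequenced from MEL cells, a mouse leukemia line of early red cell precursors in which DMSO switches on hemoglobin production. Day 0 was before 2% DMSO was added, and day 2 and day 4 were after 2 and 4 days with it, and each day is represented by 2 cultures (6 libraries). No culture was kept without DMSO for 2 or 4 days, so the effect of DMSO and that of time in culture cannot be told apart. The cells are 1 transformed line that came from mice with Friend virus disease, with no other genotype given in the labels.

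P-TEFb, made of the kinase CDK9 and cyclin T1 or T2, phosphorylates the tail of RNA polymerase II, the negative elongation factor NELF and DSIF, and so releases the paused enzyme into the gene body. A large part of P-TEFb is held inactive in cells by the 7SK small nuclear RNA, on which HEXIM1 inhibits the kinase, LARP7 binds the end of the RNA and keeps it stable, and MEPCE caps it. BET proteins read acetylated histones at promoters and enhancers. HEXIM1 was named for its induction by hexamethylene bisacetamide, another compound that makes MEL cells differentiate. The 7SK RNA itself was not analysed here, and nothing below measures protein, kinase activity or the bound share of P-TEFb.

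Each library held between 35294930 and 53899476 counts on transcripts. The libraries carried the identity given in the labels: 8 of 9 erythroid markers were higher at day 4 than at day 0 and 1, Klf1, was lower. Over all genes tested 35.5% were higher and 36.4% lower. The summed level of the 9 markers lay between 1095 and 1155 CPM (a count scaled by library size) at day 0. It lay between 4279 and 5084 CPM at day 2 and between 17651 and 19799 CPM at day 4. Of other blood cell markers, the sum of 6 myeloid genes, nearly all of it Spi1, lay between 101 and 122 CPM at day 0 and between 7.45 and 12.5 CPM at day 4, with Elane and Itgam under 10 counts over all libraries. The sum of 4 mast cell genes lay between 4.22 and 4.45 CPM at day 0 and between 0.486 and 0.803 CPM at day 4. The 3 megakaryocyte genes summed to 267 and 270.3 CPM at day 0 and to 546 and 620 CPM at day 4, of which Itga2b, also present on early erythroid cells, was the main part. The 4 lymphoid markers summed to at most 0.221 CPM and the 3 fibroblast markers to at most 2.82 CPM, with Dcn at 0 counts. The part that a changing mix of cell stages had in the results below was not tested. In these bulk libraries fewer cells of a kind and less RNA per cell cannot be told apart. The 2 day 0 libraries differed from each other more than the libraries of the other days (chi-square per degree of freedom over transcripts of 59.8, against 10.6 at day 2 and 16.7 at day 4).

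By day 4 the summed erythroid markers rose many fold. The 95% interval of the change from day 0 to day 4 lay within 2-fold either way for 8 of the 9 elongation regulators. Larp7, the exception, was the member that moved furthest. Levels are given below as CPM, the count of a transcript relative to the library size after scaling by TMM factors, and changes as log2 fold changes from edgeR's quasi-likelihood test with Benjamini-Hochberg adjustment over 18351 transcripts, called at an adjusted p below 0.05. From day 0 to day 2, 3 of the 9 genes were called, 1 higher (Ccnt2) and 2 lower (Hexim1 and Larp7), where 62.5% of all genes tested were called, 31% higher and 31.5% lower. From day 2 to day 4 also 3 were called, 2 higher (Ccnt2 and Brd2) and 1 lower (Larp7), against 30.3% of all genes, 14% higher and 16.2% lower. Over the whole course, day 4 against day 0, 3 were called, 2 higher (Ccnt1 and Ccnt2) and 1 lower (Larp7), against 71.8% of all genes, 35.5% higher and 36.4% lower. The share of members called was thus 33.3% in each comparison, below the share of all genes in the first and the last and near it in the middle. Their median change on the log2 scale was -0.01, 0.15 and 0.07 in that order, beside 0.01, 0.00 and -0.02 for all genes.

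Cdk9, Brd3, Supt5 and Supt4a were called in none of the 3 comparisons, with edgeR or with DESeq2, and the 95% interval of each of them held 0 in all 3. At day 4 against day 0, the 95% interval lay between -1 and 1 for 8 of 9 genes, the exception being Larp7. The counts of calls moved with single libraries. In the refits named below, the number of all genes called moved in the same direction as that of the members. For day 2 against day 0, only Larp7 was called when either day 2 library was left out. For day 4 against day 2, the count was 0 without day 2 replicate 1 or day 4 replicate 2, 1 without day 2 replicate 2 and 5 without either day 0 library. For day 4 against day 0, 6 genes were called without day 0 replicate 1.

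**Figure D1:**
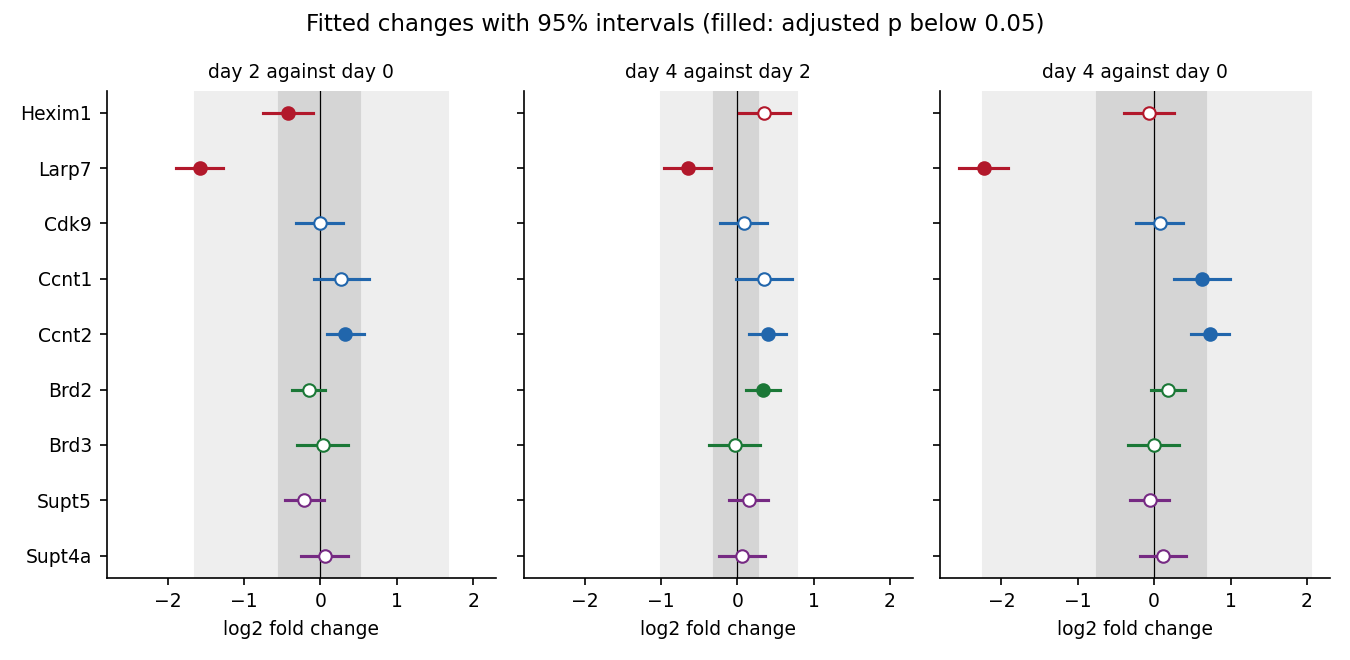
Log2 fold change (x axis) of each of the 9 genes (rows) for the 3 comparisons, with 95% intervals as lines and filled points for an adjusted p below 0.05 in edgeR's quasi-likelihood test. The dark and light grey bands span the middle 50% and 90% of 12381 genes. Larp7 lies at -2.23 for day 4 against day 0, near the lower edge of the light band, and the other 8 genes lie between -0.07 and 0.73.

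Of the 7SK ribonucleoprotein, Larp7 fell at both steps and Hexim1 fell at the first step only by the test. Larp7, whose protein binds and protects the 7SK RNA, is counted as NM_138593, a transcript of 13 exons on the minus strand of chromosome 3 (127536714 to 127553349, GRCm38). It stood at 67.2 and 86.5 CPM in the 2 day 0 libraries, 27.5 and 23.9 at day 2, and 16.6 and 16.1 at day 4. The libraries of the 3 days did not overlap, with day 0 highest and day 4 lowest.

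The log2 fold change of Larp7 was -1.58 ± 0.14 (SE; edgeR adjusted p = 4.47e-06) from day 0 to day 2. From day 2 to day 4 it was -0.65 ± 0.14 (edgeR adjusted p = 0.00633). Across the 4 days it was -2.23 ± 0.14 (edgeR adjusted p = 2.37e-07), 4.71-fold lower. Among 12381 genes, 625 had a lower value than Larp7 for day 4 against day 0, which puts it at the percentile 5.05 of all changes. The first step was larger than the second: the change of the second step minus that of the first was 0.93 ± 0.25 (edgeR adjusted p = 0.0169). That test was lost without day 2 replicate 1 (1.14, edgeR adjusted p = 0.0905) or day 2 replicate 2 (0.73, edgeR adjusted p = 0.212) and with total counts alone (0.65, edgeR adjusted p = 0.0551). The call of the second step was lost without day 2 replicate 1 (-0.55, edgeR adjusted p = 0.0983) or day 4 replicate 2 (-0.64, edgeR adjusted p = 0.056). The calls of the first step and of the whole course held whichever library was left out, with values of -1.76 to -1.40 and -2.41 to -2.05. In the transcript, 23.2% of its 31-base words also occur in Gm12666, a gene on another chromosome, so reads of a part of it may be shared.

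Hexim1, the inhibitor that sits on 7SK, is a gene of 1 exon on the plus strand of chromosome 11 (NM_138753, 103116325 to 103119725). Its level was 36.5 and 49.3 CPM at day 0, 29.7 and 34.3 at day 2, and 43.3 and 38.7 at day 4. Both day 2 libraries were below all 4 others, while the day 0 and day 4 libraries overlapped. The day 2 level was 1.34-fold lower than at day 0, with a log2 fold change of -0.42 ± 0.15 (SE; edgeR adjusted p = 0.029). From day 2 to day 4 the value was 0.36 ± 0.15 (edgeR adjusted p = 0.0956) and from day 0 to day 4 -0.07 (95% interval -0.40 to 0.26; edgeR adjusted p = 0.698). The dip as a whole, tested as the second step minus the first, was 0.78 ± 0.26 (edgeR adjusted p = 0.0459).

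The call of Hexim1 at day 2 rested on the libraries and the scaling. It was lost without day 0 replicate 2 (-0.20, edgeR adjusted p = 0.167), day 2 replicate 1 (-0.32, 0.211) or day 2 replicate 2 (-0.53, 0.0596), and when libraries were scaled by total counts alone (-0.22, edgeR adjusted p = 0.209). Total counts alone moved the median of all genes to 0.21 in that comparison, so that Hexim1 lay at about the same distance below the median as under TMM. The second step, uncalled above, was called with no filter (0.35, edgeR adjusted p = 0.0333), with the days compared alone (0.35, edgeR adjusted p = 0.01) and without either day 0 library (0.35, edgeR adjusted p = 0.00958 and 0.00988). The test of the dip was lost without any 1 of the day 2 or day 4 libraries, with values of 0.58 to 0.99, and with total counts alone (0.50, edgeR adjusted p = 0.159), and held without either day 0 library.

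The upstream sequences of 1 gene for each kind of course are shown, from RefSeq's GRCm38.p6 tables: Larp7 for the fall, Hexim1 for the dip and Ccnt2 for the rise at both steps. All run 5′ to 3′ on the strand of the gene and end 1 base before the annotated start. For Hexim1 the window was cut where a GENCODE transcript starts, 94 bases before the RefSeq start. Capitals mark a TGACGTCA word (a cAMP response element) in Larp7, the TATAA word in Hexim1 and CCAAT words, on either strand, in Ccnt2. They lie at chr3:127553350-127553599 (minus strand), chr11:103116075-103116230 (plus strand) and chr1:127773914-127774163 (plus strand).
Larp7: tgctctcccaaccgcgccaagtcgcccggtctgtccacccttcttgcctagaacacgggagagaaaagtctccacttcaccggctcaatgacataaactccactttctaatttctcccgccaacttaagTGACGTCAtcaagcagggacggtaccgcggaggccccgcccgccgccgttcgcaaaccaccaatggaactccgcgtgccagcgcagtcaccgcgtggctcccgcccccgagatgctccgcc
Hexim1: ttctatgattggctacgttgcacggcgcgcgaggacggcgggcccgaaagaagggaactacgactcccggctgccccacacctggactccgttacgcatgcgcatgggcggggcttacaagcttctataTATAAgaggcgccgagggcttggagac
Ccnt2: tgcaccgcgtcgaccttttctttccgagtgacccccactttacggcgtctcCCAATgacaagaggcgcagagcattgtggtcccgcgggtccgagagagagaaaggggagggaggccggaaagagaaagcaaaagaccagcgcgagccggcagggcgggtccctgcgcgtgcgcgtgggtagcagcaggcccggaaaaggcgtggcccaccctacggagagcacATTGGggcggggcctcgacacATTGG

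Several motifs were searched on both strands in the 250 bases before each of 32851 RefSeq starts, chosen after these sequences had been seen. TGACGTCA occurred before 1.55% of all starts and, among the 9 genes, only before Larp7, 121 bases upstream of the start. TATAA occurred before 22.8% of all starts and, among the 9, only before Hexim1, where it begins 27 bases before the GENCODE start. CCAAT was found before 33.8% of all starts and before 4 of the 9 genes (Hexim1, Larp7, Cdk9 and Ccnt2). It is thus not particular to the gene that rose, and the 1 copy in each of Larp7 and Hexim1 is not in capitals above. Of all starts, 2.79% had 3 or more copies of it, as in Ccnt2. The ETS word CCGGAAG was found before 6.91% of all starts and before 4 of the 9 genes (Cdk9, Ccnt1, Supt4a and 1 of 3 starts of Brd2). A word that GATA factors bind (AGATAA or AGATAG, or either with T as its first letter) occurred before 26.5% of all starts and before 2 of the 9, Ccnt1 and 1 start of Brd2, and the E-box CACGTG before 6.02% of all starts and none of the 9. These are matches of letters in a window and were not compared with any binding data.

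**Figure D2:**
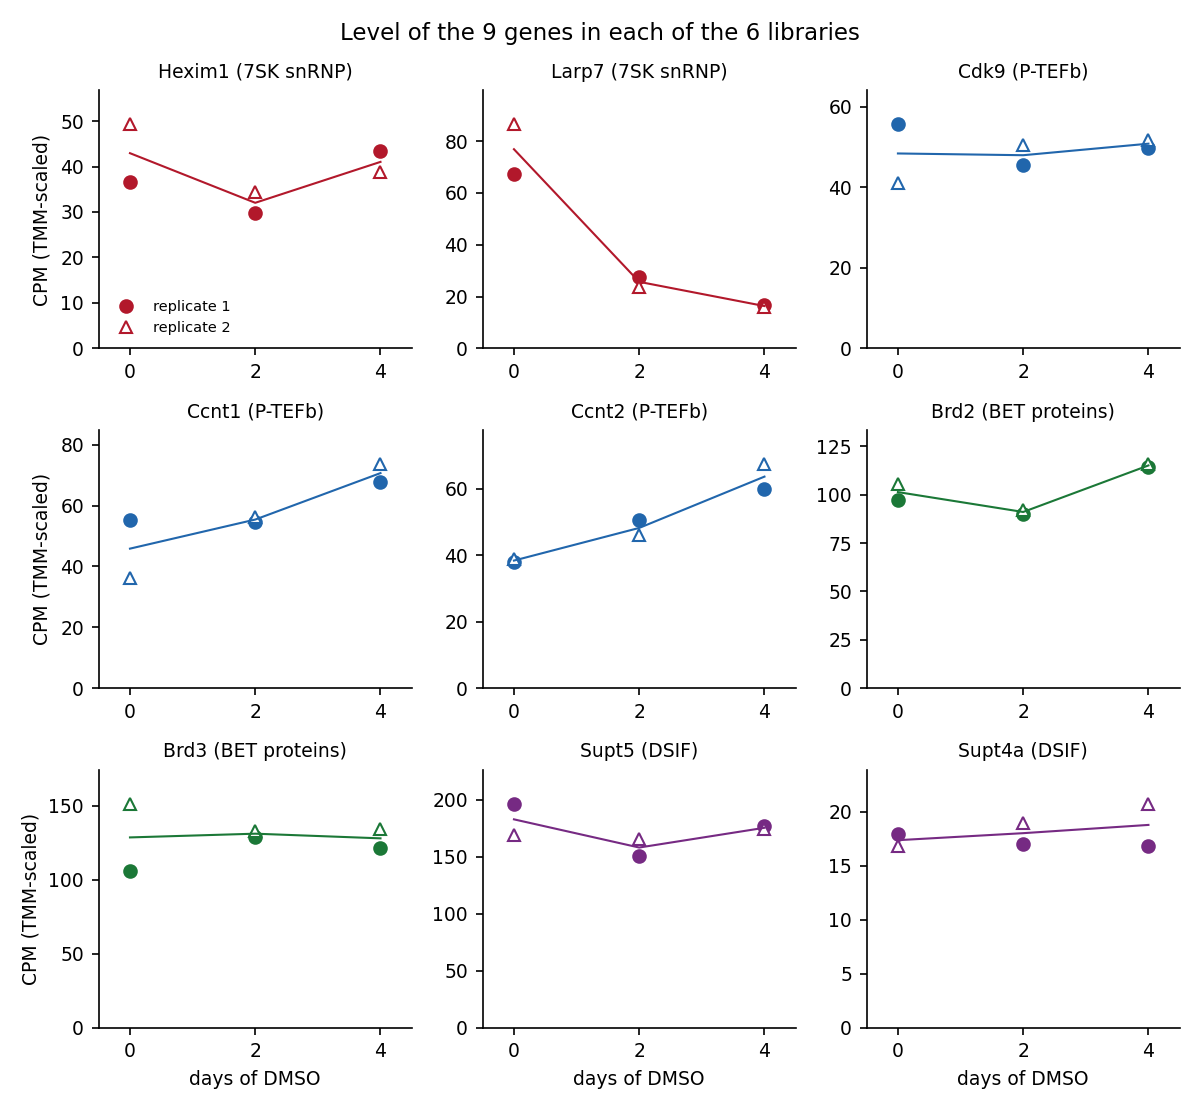
Level in CPM scaled by TMM factors (y axis, from 0) of each gene in each library against days of DMSO (x axis). Filled circles are replicate 1, open triangles replicate 2, and the line joins the means of 2 libraries. Larp7 falls from 67.2 and 86.5 to 16.6 and 16.1 CPM, and both cyclins T are highest at day 4. Hexim1 and Brd2 have their lowest values at day 2. The day 0 libraries of Brd3, Ccnt1, Cdk9 and Hexim1 lie far apart.

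The P-TEFb cyclins rose while the level of the kinase did not pass the test. Ccnt2, cyclin T2, lies on the plus strand of chromosome 1 (NM_028399, 127774164 to 127804837), and its matched GENCODE transcript has 9 exons. Its values were 37.9 and 38.8 CPM at day 0, 50.4 and 45.9 at day 2, and 59.8 and 67.4 at day 4. The 3 days did not overlap, in steps of about equal size.

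Ccnt2 had a log2 fold change of 0.33 ± 0.11 (SE; edgeR adjusted p = 0.0231) for the first step and 0.40 ± 0.11 (edgeR adjusted p = 0.0191) for the second. Over the course it rose 1.66-fold, by 0.73 ± 0.11 (edgeR adjusted p = 0.000122). The steps differed by 0.07 (95% interval -0.35 to 0.49; edgeR adjusted p = 0.799). Its rise over the course was called whichever library was left out, with values of 0.64 to 0.81. The call of the first step was lost without day 2 replicate 1 (0.26, edgeR adjusted p = 0.184) or day 2 replicate 2 (0.40, 0.0549), and that of the second without day 2 replicate 1 (0.47, 0.0985), day 2 replicate 2 (0.33, 0.179) or day 4 replicate 2 (0.31, 0.207).

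Ccnt1, cyclin T1, lies on the minus strand of chromosome 15 (NM_009833, 98538690 to 98567736), and its matched GENCODE transcript has 9 exons. It was measured at 55.4 and 36.3 CPM at day 0, 54.6 and 56.2 at day 2, and 67.7 and 73.8 at day 4. The day 4 libraries were above the 4 others, and the first day 0 library lay at the level of day 2. Ccnt1 rose 1.54-fold over the course, by 0.63 ± 0.17 (SE; edgeR adjusted p = 0.0053), with uncalled values of 0.27 ± 0.17 and 0.35 ± 0.16 for the 2 steps. The size of the rise hung on the day 0 libraries: it was 0.96 without replicate 1 and 0.34 without replicate 2 of day 0, called in both cases (edgeR adjusted p = 1.4e-06 and 0.00951). Without day 0 replicate 1 the first step was also called (0.61, edgeR adjusted p = 0.000164), and without either day 0 library the second was (0.35, edgeR adjusted p = 0.00431 and 0.00417). The first step was called with total counts alone (0.47, edgeR adjusted p = 0.0274), and with no filter both steps were (0.28 and 0.35, edgeR adjusted p = 0.0478 and 0.0246).

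Cdk9, the kinase itself, lies on the minus strand of chromosome 2 (NM_130860, 32705782 to 32712784), and its matched GENCODE transcript has 7 exons. Its level was 55.7 and 41.2 CPM at day 0, 45.6 and 50.4 at day 2, and 49.9 and 51.8 at day 4. The day 0 libraries enclosed the 4 others. The log2 fold change over the course was 0.07 (95% interval -0.24 to 0.38; edgeR adjusted p = 0.66), so a change of 2-fold lies outside the interval and a small one does not. Without day 0 replicate 1 it became 0.30 (edgeR adjusted p = 0.0208), and without day 0 replicate 2 it was -0.14 (edgeR adjusted p = 0.232).

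Of the BET proteins, which bind acetylated histones, Brd2 rose at the second step and Brd3 was not called. Brd2 lies on the minus strand of chromosome 17 (NM_010238, 13 exons, 34112019 to 34122814), and 360 bases, 8.03% of the transcript, overlap exons of H2-DMa on the other strand. It stood at 97.3 and 105 CPM at day 0, 90.0 and 92.2 at day 2, and 114 and 116 at day 4. The 3 days did not overlap, with day 2 lowest and day 4 highest.

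The second step of Brd2 was 0.34 ± 0.10 (SE; edgeR adjusted p = 0.0266), 1.26-fold higher, after a first step of -0.15 ± 0.10 (edgeR adjusted p = 0.2). Against day 0, the day 4 value was 0.18 (95% interval -0.04 to 0.40; edgeR adjusted p = 0.12), and the difference between the steps was 0.49 ± 0.18 (edgeR adjusted p = 0.0548). That difference was called with DESeq2 (0.53, DESeq2 adjusted p = 0.0264), with RLE factors (0.53, edgeR adjusted p = 0.0422) and without day 0 replicate 1 (0.55, edgeR adjusted p = 0.0107) or replicate 2 (0.44, edgeR adjusted p = 0.0361). The call of the second step was lost without any 1 of the day 2 or day 4 libraries (0.32 to 0.35, edgeR adjusted p = 0.101 to 0.208) and with total counts alone (0.25, edgeR adjusted p = 0.0826). Total counts alone also gave a called value for day 4 against day 0 (0.30, edgeR adjusted p = 0.0208), where they move the median of all genes to 0.10. Counts of the 3 Brd2 transcripts differed by at most 0.822% in any library, so they do not tell the transcripts apart. The second step of 0.34 for each of the other 2 is therefore no separate evidence.

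Brd3 lies on the minus strand of chromosome 2 (NM_001113574, 13 exons, 27445576 to 27507657). Its values were 106 and 151 CPM at day 0, 129 and 133 at day 2, and 122 and 134 at day 4. The day 0 libraries again enclosed the others, and the mean hardly moved, from 129 ± 32.3 (SD, n = 2) to 131 ± 2.91 and 128 ± 9.07 CPM. The value for day 4 against day 0 was -0.01 (95% interval -0.34 to 0.33; edgeR adjusted p = 0.967). It turned on which day 0 library was used: -0.25 (edgeR adjusted p = 0.0444) without replicate 1 and 0.26 (edgeR adjusted p = 0.0393) without replicate 2 of day 0. Without day 0 replicate 2 the first step was called too (0.30, edgeR adjusted p = 0.024).

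Brdt, the BET protein known from the testis, is no member but belongs to the other genes of the pathway and was picked out after its values were seen. It was counted in every library, at 38.0 and 33.5 CPM at day 0, 26.6 and 24.9 at day 2, and 25.5 and 22.7 at day 4. It fell by 0.57 ± 0.12 on the log2 scale over the course (edgeR adjusted p = 0.00158).

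The DSIF subunits, which hold the paused polymerase and after phosphorylation travel with it, were not called at any step. Supt5, the large subunit, has 30 exons on the minus strand of chromosome 7 (NM_013676, 28314891 to 28338804), of which 12.3% of bases overlap the antisense gene Gm44709. Its level was 197 and 169 CPM at day 0, 151 and 165 at day 2, and 177 and 174 at day 4. Day 2 was again lowest in both libraries, below all 4 others, by a first step of -0.21 (95% interval -0.46 to 0.05; edgeR adjusted p = 0.135), which was called only without day 0 replicate 2 (-0.32, edgeR adjusted p = 0.0148). Over the course the value was -0.06 (95% interval -0.31 to 0.19; edgeR adjusted p = 0.656).

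Supt4a, the small zinc finger subunit, has 5 exons on the plus strand of chromosome 11 (NM_009296, 87737551 to 87743623). It was counted at 17.9 and 16.8 CPM at day 0, 17.1 and 19.0 at day 2, and 16.8 and 20.8 at day 4. All 6 libraries overlapped between days, and the value over the course was 0.12 (95% interval -0.19 to 0.42; edgeR adjusted p = 0.467). Of its 31-base words 35.2% also occur in Supt4b, annotated as a processed pseudogene, so its level is uncertain by the reads these may share.

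Levels between genes were compared per kilobase for the 6 members whose GENCODE transcript ends within 100 bases of the RefSeq gene, which leaves out Cdk9, Ccnt1 and Ccnt2. On the scale of CPM per kilobase at day 0, Supt5 was highest at 52.1 ± 5.57 (SD, n = 2), followed by Larp7 at 36.2 ± 6.46. Next came Supt4a at 24.6 ± 1.08, Brd3 at 24.3 ± 6.11 and Brd2 at 22.6 ± 1.28, of which Brd3 overlapped both others while Supt4a and Brd2 did not overlap, and Hexim1 was lowest at 12.3 ± 2.58. Larp7 went from second place to last. By day 4 Supt5 stood at 50.0 ± 0.472, Supt4a, Brd2 and Brd3 at 26.6 ± 3.96, 25.7 ± 0.259 and 24.2 ± 1.71, Hexim1 at 11.7 ± 0.924 and Larp7 at 7.70 ± 0.153. At day 2 Larp7 (12.1 ± 1.21) was still above Hexim1 (9.16 ± 0.920), and the libraries of that pair did not overlap on any day.

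Ratios of counts within a library do not depend on how libraries are scaled, and were compared only between days. The count of Larp7 was 1.84 and 1.75 times that of Hexim1 in the day 0 libraries, 0.924 and 0.696 times at day 2, and 0.383 and 0.416 times at day 4. The day 4 mean was 0.222 of the day 0 mean, and the days did not overlap. The counts of Mepce, the 7SK capping enzyme, to those of Larp7 went the other way, from 0.632 and 0.445 at day 0 through 1.78 and 2.32 at day 2 to 3.66 and 3.59 at day 4, a mean 6.73 times higher at day 4 than at day 0. Mepce and Larp7 were called in opposite directions at day 4 (given with the other pathway genes below).

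Within P-TEFb, the ratio of Ccnt1 to Cdk9 was 0.994 and 0.883 at day 0, 1.198 and 1.12 at day 2, and 1.36 and 1.42 at day 4. Day 0, day 2 and day 4 did not overlap, although the day 0 levels of each of the genes differed widely between the libraries. The ratio of Ccnt2 to Cdk9 was 0.681 and 0.942 at day 0, 1.11 and 0.911 at day 2, and 1.197 and 1.30 at day 4, with an overlap of day 0 and day 2. The ratio of Hexim1 to Cdk9 was 0.656 and 1.198 in the day 0 libraries, and the other 4 lay between 0.652 and 0.867. Between the BET genes, the ratio of Brd2 to Brd3 was 0.697 and 0.693 at day 2 and 0.941 and 0.863 at day 4, with 0.920 and 0.696 at day 0. No test was run on the ratios, which are given as descriptions.

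**Figure D3:**
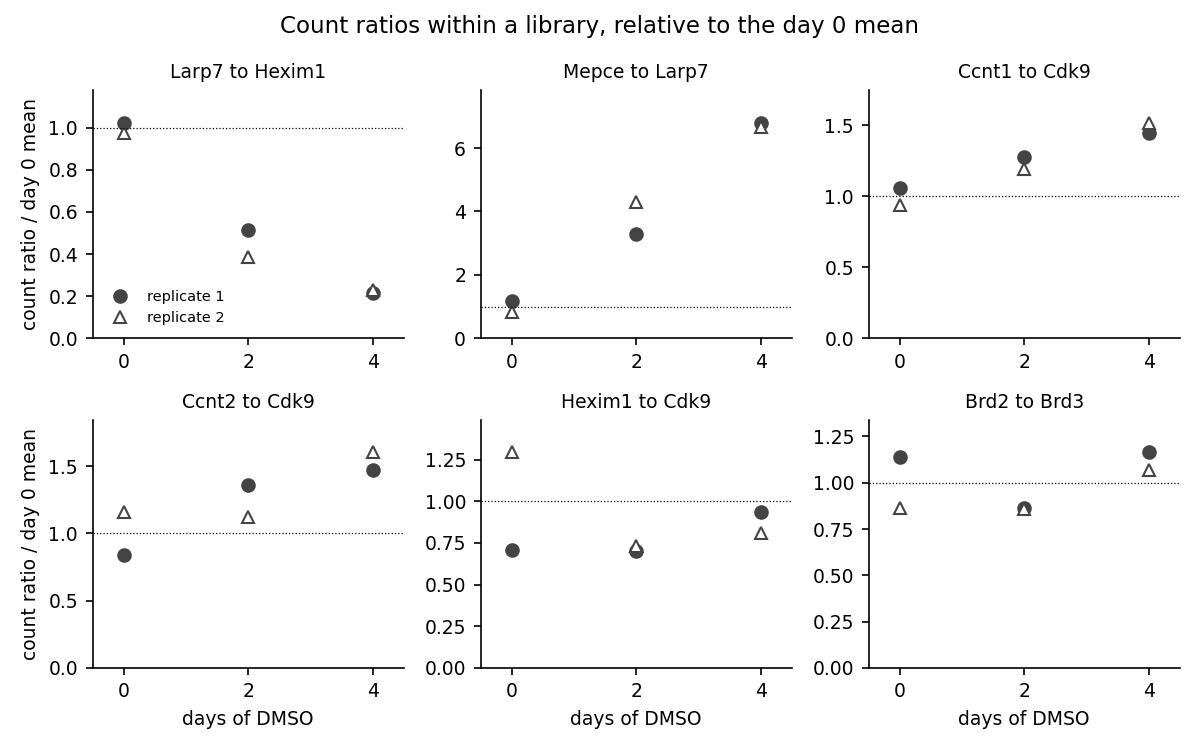
Ratio of the counts of the named genes within each library, divided by the mean ratio of the 2 day 0 libraries (y axis, from 0), against days of DMSO (x axis). Filled circles are replicate 1, open triangles replicate 2, and the dotted line is the day 0 mean. Larp7 to Hexim1 drops to a mean of 0.222 at day 4, Mepce to Larp7 climbs to 6.73, Ccnt1 to Cdk9 climbs to 1.48, and the day 0 libraries of Hexim1 to Cdk9 lie far apart.

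The other genes of transcription elongation, 65 in 8 lists of which 63 were tested, were lower more often than higher at day 4. Against day 0, 34 were lower, 16 higher and 13 not called, with a median log2 fold change of -0.33, beside -0.02 for all genes, of which 36.4% were lower and 35.5% higher. At the first step 28 were lower and 12 higher (median -0.22), where 31.5% of all genes were lower and 31% higher. At the second 5 were lower and 7 higher (median 0.01), where 16.2% of all genes were lower and 14% higher. Of the RNA polymerase II subunits, 10 of 12 were lower at day 4 and none higher (36.4% and 35.5% of all genes), with Polr2h, a subunit shared by the 3 polymerases, lowest at -1.65 ± 0.13 (SE; edgeR adjusted p = 8.38e-07).

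Among 6 other P-TEFb, 7SK and BET genes, 4 fell and 1 rose by day 4, where 71.8% of all genes were called in either direction. Jmjd6, a hydroxylase linked to pause release, went from 97.4 and 87.8 CPM at day 0 to 33.3 and 33.1 at day 2 and 35.3 and 36.4 at day 4 (-1.37 ± 0.11, edgeR adjusted p = 7.94e-07). Mepce was the one that rose, from 42.5 and 38.5 to 60.6 and 57.8 CPM (0.55 ± 0.11, edgeR adjusted p = 0.00105). Hexim2, the paralogue of Hexim1 and picked out after its values were seen, fell by 0.96 ± 0.22 on the log2 scale (edgeR adjusted p = 0.00216), from 8.82 and 14.2 CPM at day 0 to 6.32 and 5.55 at day 4. Unlike Hexim1, its day 4 libraries lay below both day 0 libraries, and the difference between the paralogues was not tested.

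The super and little elongation complexes, which carry P-TEFb or act on small nuclear RNA genes, had 4 of 12 tested genes higher and 3 lower at day 4, shares near or below those of all genes (35.5% higher and 36.4% lower). Ell2, an elongation factor that binds the AFF scaffold, had the largest rise in the 8 lists, from 39.5 and 37.8 CPM at day 0 to 102 and 94.9 at day 2 and 199 and 184 at day 4. Its log2 fold change over the course was 2.31 ± 0.11 (SE; edgeR adjusted p = 3.2e-08). Zc3h8 of the little elongation complex fell by 2.17 ± 0.21 (edgeR adjusted p = 3.73e-06), to 2.27 and 1.52 CPM. Ell3, with 6 counts over all libraries, and Tcea3, with 17, were not tested.

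Of 6 NELF and pausing genes, 5 were lower and 1 higher at day 4, and the counts of this and the next lists stand beside 36.4% lower and 35.5% higher over all genes. Nelfe had the largest fall, at -1.15 ± 0.16, and Nelfb was the gene that rose, at 0.32 ± 0.11, both being NELF subunits. The PAF1 complex, which travels with elongating polymerase, had 3 of 6 lower, Wdr61 most at -1.48 ± 0.18, and Paf1 itself higher at 0.55 ± 0.12. Of 6 tested genes of SPT6, FACT and TFIIS, 4 were lower and 1 higher. Ssrp1, a subunit of the histone chaperone FACT, fell by 1.69 ± 0.11, and Supt6, a chaperone bound to the polymerase, rose by 0.57 ± 0.11. The other kinases of the polymerase tail split 4 higher and 3 lower of 9, from Cdk19 of Mediator at 0.79 ± 0.12 to Ccnh, the cyclin of the TFIIH kinase, at -0.95 ± 0.13. The tail phosphatases split 4 higher and 2 lower of 6, from Ctdsp2 at 1.24 ± 0.11 to Ctdp1 at -1.10 ± 0.14. All of these named changes are log2 fold changes of day 4 against day 0 with SE, at edgeR adjusted p of at most 0.0179.

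**Figure D4:**
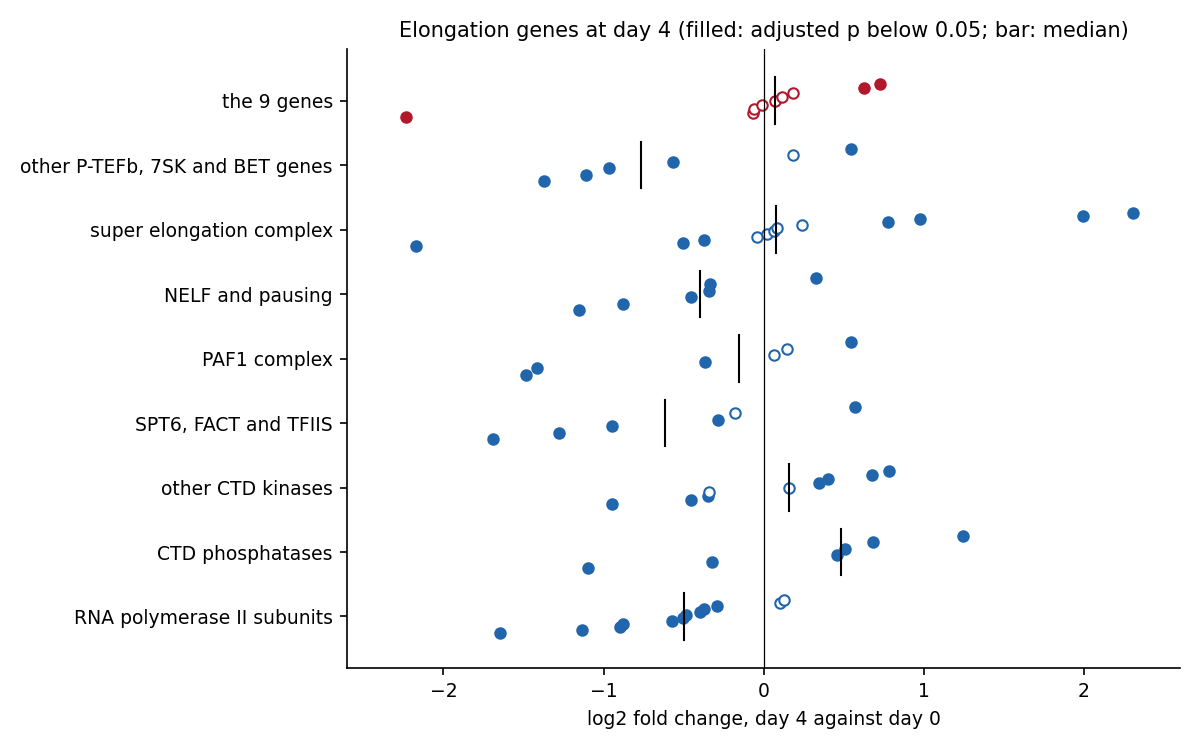
Log2 fold change of day 4 against day 0 (x axis) for the 9 genes (red) and 63 other elongation genes in 8 lists (blue), 1 point per gene, filled where the edgeR adjusted p was below 0.05, with a bar at the median of each list. The 9 genes center at 0.07 with Larp7 alone far to the left, and the RNA polymerase II subunits center at -0.50.

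The genes with the profile most like that of a member were found among 10453 genes, as the smallest root mean square difference between log2 levels over the 6 libraries, each centered on its mean. For Hexim1 these were Ndufa7 (0.05 log2 units), Sf3a1 (0.07) and Tmem234 (0.07). Ndufa7, a subunit of respiratory complex I, had means of 62.1, 49.2 and 60.9 CPM at day 0, 2 and 4, lowest at day 2 as for Hexim1. For Cdk9 they were 6330549D23Rik (0.03), Cdc42se2 (0.05) and Brk1 (0.05), for Brd2 Snrnp25 (0.04), Nktr (0.04) and 2310061I04Rik (0.05), and for Brd3 Glo1 (0.04) and the pair Gm2002 and Il11ra2 (0.05 each), whose counts were identical in every library. The measure used 6 libraries, 2 per day, and was given no test. It also matches differences between the libraries of a day. For Hexim1, Cdk9 and Brd3 the gap between the day 0 libraries was larger than the differences between the means of the days.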

How the data were processed

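Poly(A) RNA of MEL cells was sequenced from 2 cultures per day (labelled biological replicates), so p-values measure the spread between cultures of 1 line. Per the labels and the study's methods, the authors trimmed stranded TruSeq reads with cutadapt, aligned them to mm10 with TopHat, allowing several hits per read, and deposited raw counts per RefSeq transcript, with HTSeq and DESeq2 among the tools named. The strand setting of the counting is not given in the sources used here. The line for reads in no feature, which was left out, made 50.5% to 58.4% of the sum of that line and the counts on transcripts. The near-equal counts of the Brd2 transcripts show that a read can count for several transcripts of a gene. These percentages are therefore not shares of reads. The lines for ambiguous and multiply aligned reads were at 0.

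Of 32654 transcripts, 32199 were named from RefSeq, 187 from GENCODE and 268 not. Exon counts of the members are those of the matched GENCODE transcript. For Cdk9, Ccnt1 and Ccnt2 it ended 1656, 4521 and 3224 bases from the end of the RefSeq gene. Counts were fitted with edgeR 4.0.16 in R 4.3.3 (quasi-likelihood test, TMM factors of 0.921 to 1.07, filterByExpr by day, 1 mean per day, all 6 libraries), after a check on simulated data. The 9 genes, the pathway lists and the markers were chosen with earlier results of these data known. Named genes were the 9, the called gene with the largest rise and fall of each list at day 4, and the 3 nearest profiles of Hexim1, Cdk9, Brd2 and Brd3. The alternatives were DESeq2 1.42.0, RLE factors, total counts, scaling without globin transcripts, no filter, a replicate block, 1 transcript per gene, a log2 fold change of at least 1, the days compared alone, and leaving out each library. Values of 1 other gene of the pathway lists are not reported here.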

Additional observations from a re-analysis of the deposited data

Results flagged for a closer look

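The change of the second step minus that of the first differed from 0 for 2 of the 9 genes, by the test of that difference itself (edgeR), where 30% of all genes tested were called, 13.1% higher and 16.9% lower. For Hexim1 it was 0.78 on the log2 scale, with values of -0.42 and 0.36 for the steps. For Larp7 it was 0.93, with a fall of 1.58 and then one of 0.65. Both steps share the day 2 libraries, so a deviation of that day enters them with opposite signs. With total counts alone the values were 0.50 and 0.65 and neither was called (edgeR adjusted p = 0.159 and 0.0551). Total counts alone also moved the median of all genes for this difference to -0.31, beside -0.03 with TMM. With DESeq2 or RLE factors Brd2 was called as well, which made 3 genes.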

How the results depend on the processing

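The calls for day 4 against day 0 (Larp7, Ccnt1 and Ccnt2) held under DESeq2, the 3 other scalings, no filter, 1 transcript per gene, the days compared alone and leaving out any library. Calls that also reached 1 in size on the log2 scale numbered 1, 0, 1 and 0 for day 2 against day 0, day 4 against day 2, day 4 against day 0 and the difference between the steps. For day 4 against day 2, no filter and the days compared alone each gave 5 calls. Over all genes they called 4293 of 12381 and 5426 of 12053, beside 3749 of 12381 in the fit used above. Total counts gave 0 for the difference between the steps, where 868 of all genes were called higher and 3518 lower. Leaving out each library in turn gave 1 to 4, 0 to 5, 3 to 6 and 0 to 4 calls in the same order. A day left with 1 library was taken to vary like the others. The replicate numbers did not pair the libraries (correlations of their deviations of 0.03, 0.05 and 0.08), and the replicate block gave 3, 3, 3 and 2 calls, as without it.

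Of the single genes, the values that changed sign were 0.28 or less in size, and 1 of them was called (Brd3 at day 4 against day 0 without day 0 replicate 2). With total counts they were 0.18 for Cdk9 and 0.044 for Brd2 (day 2 against day 0), -0.00041 for Cdk9 and -0.025 for Supt4a (day 4 against day 2), 0.051 for Hexim1, 0.11 for Brd3 and 0.054 for Supt5 (day 4 against day 0), and -0.18 for Cdk9, -0.20 for Ccnt1, -0.21 for Ccnt2 and -0.28 for Supt4a (difference between the steps), where the median of all genes is -0.31 with total counts and -0.03 with TMM. Brd3 gave -0.0012 with DESeq2 and -0.0014 with RLE factors at day 2, and 0.0074 with the replicate block and 0.0043 with 1 transcript per gene at day 4 against day 0. Supt4a gave -0.0067 without filter and -0.0026 with 1 transcript per gene for the difference between the steps. Leaving out single libraries gave, for day 2 against day 0, -0.22 to 0.22 for Cdk9, -0.0074 to 0.61 for Ccnt1, -0.21 to 0.30 for Brd3 and -0.024 to 0.13 for Supt4a. For day 4 against day 2 it gave -0.11 to 0.033 for Brd3 and -0.10 to 0.20 for Supt4a. For day 4 against day 0 it gave -0.27 to 0.15 for Hexim1, -0.14 to 0.30 for Cdk9, -0.25 to 0.26 for Brd3, -0.18 to 0.047 for Supt5 and -0.051 to 0.26 for Supt4a. For the difference between the steps it gave -0.14 to 0.30 for Cdk9, -0.26 to 0.35 for Ccnt1, -0.066 to 0.21 for Ccnt2, -0.34 to 0.17 for Brd3 and -0.16 to 0.16 for Supt4a. The causes were not tested.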
